A study of Mus musculus with 2 samples.

Results

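Described here were 38 mouse genes for heat shock proteins, other chaperones, their co-chaperones and 2 immunophilins. The genes were chosen as a list of gene symbols, with earlier results of these data known. They were 38 of the 21475 protein-coding genes, and of the 69691 features of every kind, in the gene tables, and all 38 were found there. RNA was sequenced from 2 areas of layer 5 of the cerebral cortex, the deep layer that holds large projection neurons. Each laser-captured area measured 8000 square microns and is given a starting quantity of 50 cells, although the assay is labelled as single-cell RNA-seq. Each area is described as coming from a wild-type male mouse of 8 months (C57Bl6, with B6NCrl as the strain of the source), with no treatment, transgene or other genotype. The labels number the areas as biological replicates 1 and 2 and give them the same donor label. They form 1 group of 2 areas, and the study holds no contrast between conditions. Whether the shared donor label stands for a single animal is not settled here. Differences between the areas are therefore given with no p-value, and intervals cover counting error only.

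Chaperones hold unfolded or newly made proteins so that they can reach their folded shape. HSP70 proteins bind short stretches of unfolded chain with the help of J-domain proteins, which deliver clients and trigger ATP hydrolysis, and of exchange factors such as the HSP110 proteins, while HSP90 acts later on signalling proteins and receptors. Some members of each family are made at all times, and others are transcribed when heat shock factors bind their promoters after heat, ischaemia or other proteotoxic stress. Neurons are known for a high level of the constitutive HSP70, Hspa8, which also strips clathrin from synaptic vesicles, and for a weak induction of the stress-induced HSP70 genes.

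The libraries held 26059117 expected counts in replicate 1 and 28276843 in replicate 2, of which the 38 genes took 1.57% and 1.54%. In TPM, a level in which counts are divided by transcript length and scaled to 1 fixed sum in each library, they made up 1.48% and 1.43% of the total. In both areas 36 of the 38 reached 1 TPM, 31 reached 20 TPM and 18 reached 100 TPM, and 15 stood among the 1000 protein-coding genes with the highest mean. The list's median gene stood at 98.9 and 113 TPM. Ppia, Hsp90aa1, Hspa8 and Hsp90ab1 alone held 73.1% of the members' summed TPM in replicate 1 and 71.5% in replicate 2. All levels below are TPM, in replicate 1 first and replicate 2 second unless stated. Of the markers listed as a check of the tissue, all 9 neuron genes exceeded 20 TPM in both areas, with summed levels of 8949 and 10515 TPM.

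**Figure D1:**
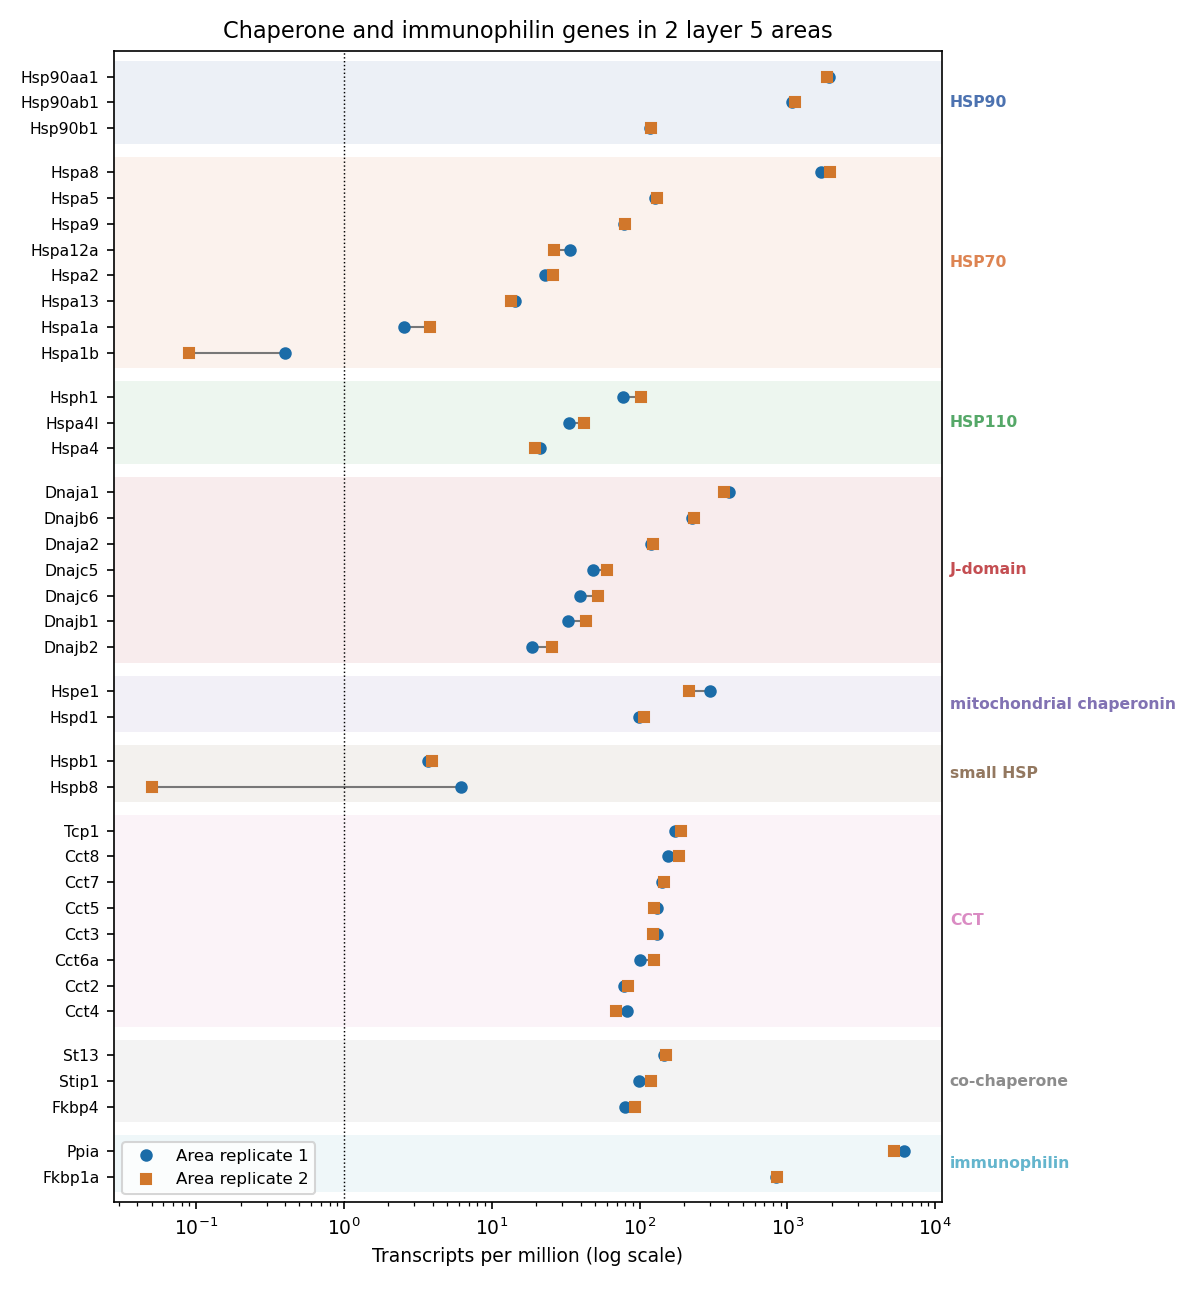
Level of each of the 38 genes in area replicate 1 (circles) and replicate 2 (squares), in TPM on a log axis, grouped by role; the dotted line marks 1 TPM. Only Hspa1b, at 0.40 and 0.09 TPM, lies under the line in both areas, and Hspb8, at 6.17 and 0.05 TPM, lies on either side of it.

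Both cytosolic HSP90 genes were among the most abundant messages of the tissue. Hsp90aa1, the stress-induced cytosolic form (chr12:110690605-110702728 of mm10, with gene bounds from GENCODE M21), stood at 1915 and 1850.4 TPM and ranked 39 among protein-coding genes by mean TPM. Hsp90ab1, the constitutive form (chr17:45567775-45573271), stood at 1076 and 1134 TPM and ranked 69. The highest Hsp90ab1 value lay under the lowest Hsp90aa1 value, so the order of these genes was the same in both areas. Hsp90b1, the form of the endoplasmic reticulum, was much lower at 118 and 119 TPM.

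The HSP70 family spanned the widest range of levels. Hspa8, the constitutive cytosolic HSP70 (chr9:40800984-40810087), stood at 1701 and 1956 TPM and ranked 40. It was 74.1 times and 75.2 times the level of Hspa2, a relative best known from the testis, at 22.9 and 26.0 TPM. Hspa5, the HSP70 of the endoplasmic reticulum, stood at 128 and 132 TPM, which was 1.09 and 1.11 times its partner Hsp90b1. Hspa9, the mitochondrial form, followed at 78.3 and 79.9 TPM. The divergent members were lower, with Hspa12a at 33.8 and 26.5 TPM and Hspa13, a microsomal form, at 14.4 and 13.5 TPM.

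The stress-induced HSP70 genes stood at the bottom of the family. Hspa1a (chr17:34969190-34972156, minus strand) had 2.55 and 3.83 TPM, from 158 and 245 expected counts. Hspa1b (chr17:34956436-34959238, minus strand) had 0.40 and 0.09 TPM, from 23.1 and 5.66 expected counts. Their transcripts align over 2201 bases at 99.2% identity, so most reads of one could come from the other and the division between them is an estimate. The deposited posterior standard deviation was 5.28 and 6.75 counts for Hspa1a and 4.74 and 2.53 for Hspa1b. Together the pair reached 2.95 and 3.92 TPM, and Hspa8 stood 576 times and 499 times higher.

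The HSP110 genes, which encode exchange factors for HSP70, were led by their stress-induced member. Hsph1 (chr5:149614287-149636376) stood at 77.6 and 103 TPM. Hspa4l followed at 33.2 and 42.0 TPM and the constitutive Hspa4 (chr11:53259814-53300457) at 21.4 and 19.6 TPM. These 3 genes did not overlap in level between the areas.

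J-domain genes ranged from Dnaja1, a farnesylated partner of cytosolic HSP70, at 404 and 376 TPM, to Dnajb2, a neuronal member that escorts ubiquitinated clients, at 18.6 and 25.7 TPM. Dnajb6, known for holding back aggregation of polyglutamine proteins, stood at 225 and 232 TPM, and the constitutive Dnaja2 at 120 and 124 TPM. The synaptic vesicle protein Dnajc5 had 48.4 and 60.5 TPM and auxilin, encoded by Dnajc6 and needed for removal of clathrin coats, had 39.5 and 52.1 TPM. Dnajb1, the classic stress-induced J-domain gene (chr8:83608193-83612653), had 32.6 and 43.2 TPM. The range of Dnajc6 over the areas overlapped those of Dnajc5 and Dnajb1, but within each area it stood between them.

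The mitochondrial chaperonin is a barrel of Hspd1 subunits closed by a lid of Hspe1. Hspd1 (chr1:55077835-55088243) stood at 98.7 and 107 TPM. Hspe1 (chr1:55088132-55091307) stood at 299 and 216 TPM, which was 3.02 times Hspd1 in replicate 1 and 2.02 times in replicate 2. The small heat shock genes were the lowest group. Hspb1, a stress-induced holdase, had 3.70 and 3.97 TPM from 64.1 and 71.0 expected counts, and Hspb8, the partner of Bag3 in selective autophagy, is described with the areas' differences.

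The 8 subunits of the cytosolic chaperonin CCT, a double ring in which each subunit has a fixed place and which folds actin and tubulin, stood close together. The highest, Tcp1 (subunit alpha), had 174 and 191 TPM, and the lowest was Cct2 at 79.0 TPM in replicate 1 and Cct4 at 69.4 TPM in replicate 2. The highest subunit was 2.20 times the lowest in replicate 1 and 2.75 times in replicate 2. Cct8 had 156 and 184 TPM, Cct7 142 and 146, Cct5 132 and 125, Cct3 132 and 123, and Cct6a 100 and 125 TPM. Cct4 had 81.9 TPM in replicate 1 and Cct2 84.2 TPM in replicate 2, so the order of these lowest subunits differed between the areas. The genes of prefoldin, the complex that hands actin and tubulin to CCT, had similar medians, of 151 and 177 TPM over 6 genes against 132 and 125 TPM over the 8 CCT genes, although Pfdn5, at 467 and 406 TPM, stood above every CCT subunit.

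Among the co-chaperones, St13, which stabilises client-bound HSP70, had 146 and 151 TPM. Stip1, which bridges HSP70 and HSP90, had 99.1 and 119 TPM, and Fkbp4, an immunophilin of the HSP90 steroid receptor complex, 80.3 and 92.5 TPM. The small immunophilins were higher. Fkbp1a, the binding protein of FK506 and rapamycin, stood at 838 and 849 TPM. Ppia, cyclophilin A (chr11:6415443-6419817), stood at 6148 and 5262 TPM and ranked 10.

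The level of Ppia depends on how reads were divided among identical copies. The processed pseudogene Gm10123 (chr9:96895658-96896147) matches a coding Ppia transcript over all 490 of its bases at 100% identity. It was given 47638 and 41124 expected counts, against 79094 and 70058 for Ppia itself. In all, 11 other gene records aligned to Ppia over at least 300 bases at 95% identity or more, and they held counts equal to 60.4% and 58.8% of those of Ppia. Counting Gm10123 with Ppia raised the members' mean share of TPM from 1.45% to 1.97%. For the other members with such copies, Hspa1a and Hspa1b apart, the copies' counts were a small part. Copies held 4.28% and 3.27% of the counts of Hspa8, 1.30% and 1.16% of Dnaja1, 1.66% and 1.15% of Dnajb6 and 0.70% and 0.65% of Hsp90aa1. No copy of this kind was found for 29 of the 38 genes.

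The contrast of constitutive and stress-induced members is a usual check of how tissue was handled, since stress-induced genes rise when tissue warms or runs out of oxygen before fixation. The 16 constitutive genes had medians of 137 and 135 TPM and all 16 passed 5 TPM in both areas. The 7 stress-induced genes had medians of 6.17 and 3.97 TPM and 3 of the 7 passed 5 TPM in both. The remaining members were placed in neither class and enter neither median. They include Hspe1 at 299 and 216 TPM, Dnaja1 at 404 and 376 TPM and Hspa13 at 14.4 and 13.5 TPM. On the log2(TPM + 1) scale the constitutive median lay above the stress-induced one by 4.27 in replicate 1 and 4.77 in replicate 2, a mean of 4.52 ± 0.36 (SD, n = 2). The size of that gap turns on which genes are counted, because the stress-induced list fell into separate levels. Hsp90aa1, Hsph1 and Dnajb1 stood at 32.6 TPM or more in both areas, and Hspa1a, Hspa1b, Hspb1 and Hspb8 at 6.17 TPM or less. Without Hspa1a, Hspa1b and Ppia, whose reads are shared with copies, the mean gap was 1.75. The libraries hold no handled or heated comparison, so what level a stressed area would show was not measured.

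Within families, the stress-induced relative was the lower one in HSP70 and among J-domain genes, and the higher one in HSP90 and HSP110. For HSP70 the log2 ratio of Hspa1a and Hspa1b together over Hspa8 was -9.17 and -8.96. For the J-domain pair, Dnajb1 over Dnaja2 was -1.88 and -1.53. For HSP90 the log2 ratio of Hsp90aa1 over Hsp90ab1 was 0.83 and 0.71, and for HSP110 that of Hsph1 over Hspa4 was 1.86 and 2.40. Of the TPM of Hspa4, 57.3% and 57.5% lay in transcripts not typed as coding, and its coding transcript Hspa4-201 held 9.12 and 8.32 TPM. Each pair had the same sign in both areas. With counts divided by the length of the longest coding transcript in place of TPM, a setting added after seeing the data, the mean HSP70 ratio was -8.46 and that of HSP90 0.23, with signs kept.

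**Figure D2:**
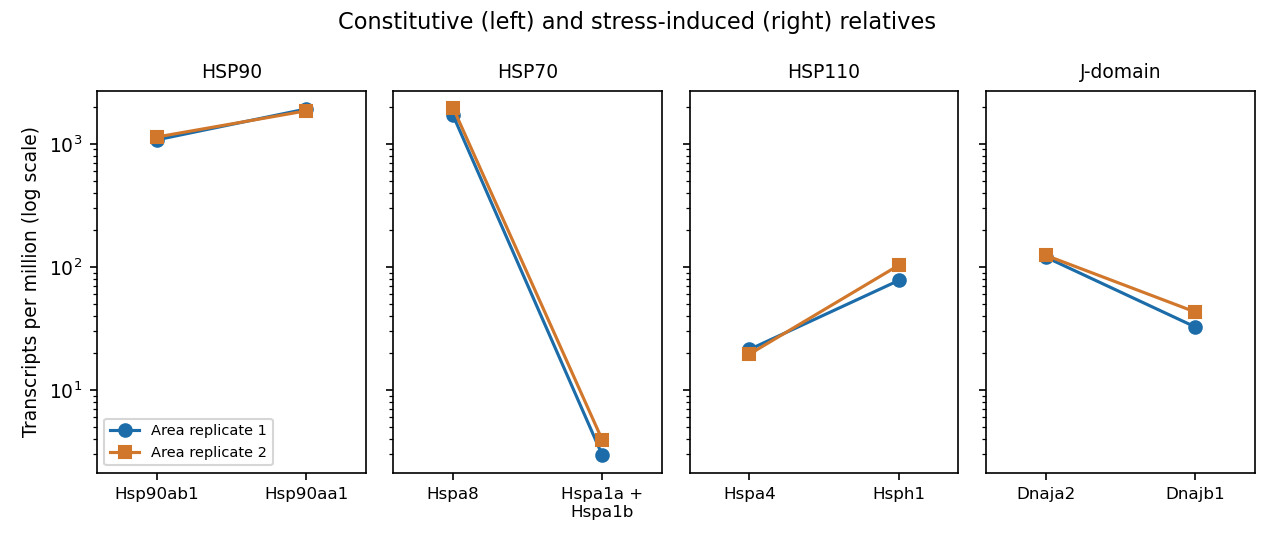
TPM on a log axis of the constitutive gene (left in each panel) and its stress-induced relative (right), joined by a line for each area. The lines go down steeply for HSP70, from 1701 and 1956 TPM to 2.95 and 3.92 TPM, go down for the J-domain pair, and go up for HSP90 and HSP110.

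Heat shock factors bind alternating GAA and TTC units spaced by 2 bases. RefSeq promoter windows on GRCm38.p6, running from 250 bases before to 50 bases after a start site, were found for 30 of the 38 genes. None was found for Hsp90aa1, Hsp90ab1, Hspa8, Hspa9, Hspa13, Dnajc5, Cct4 and St13. A run of 3 units, GAANNTTCNNGAA or TTCNNGAANNTTC, stood in windows of 4 of these 30 genes (13.3%), namely Dnajb6, Hspd1, Hspe1 and Hsph1, against 179 of 27025 genes with a window (0.66%). These patterns are each other's reverse complement, so both strands were searched. A run of 2 units, GAANNTTC or TTCNNGAA, each of which reads the same on both strands and is part of the longer run, stood in 13 of the 30 (43.3%) against 17.0% of all genes. Among stress-induced members 5 of 6 with a window held the shorter run, all but Dnajb1, and among constitutive members 3 of 11, namely Cct2, Cct5 and Cct6a. A match in letters is not a bound site, and the list holds gene pairs with shared or duplicated promoters. Only exact units and spacing were sought, so a window without a match, such as those of Dnajb1, was not shown to lack an element.

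**Figure D3:**
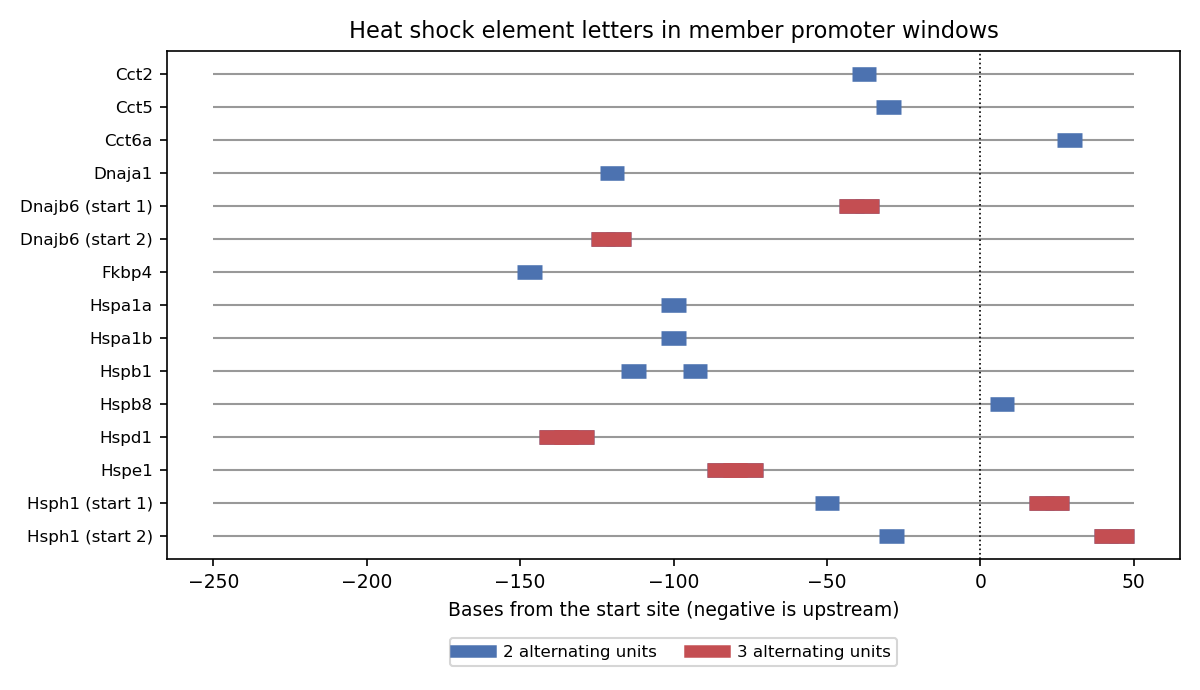
Matches to 2 alternating units (blue) and 3 alternating units (red) in the promoter windows of the 13 genes that hold one. Distance is in bases from the RefSeq start site. Only start sites whose window holds a match have a row, so Dnajb6 and Hsph1 have 2 rows each. The longest run lies between Hspd1 and Hspe1, and the 3-unit matches of Hsph1 lie after its start sites.

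The promoters of Hspa1a and Hspa1b are shown because the genes that a heat shock factor is best known for were the lowest HSP70 genes here. The 250 bases before their starts, both on the minus strand, differ at 3 bases (98.8% identity) and hold the same 2-unit run at bases -104 to -97. That of Hspb1, on the plus strand, holds 2 such runs, at -117 to -110 and -97 to -90. Capitals mark the matched runs.
Hspa1a (chr17:34972157-34972406): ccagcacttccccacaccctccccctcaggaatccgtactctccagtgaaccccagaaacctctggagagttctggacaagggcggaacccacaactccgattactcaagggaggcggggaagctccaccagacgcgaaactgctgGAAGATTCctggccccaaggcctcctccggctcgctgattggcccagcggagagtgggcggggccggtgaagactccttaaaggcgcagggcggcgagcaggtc
Hspa1b (chr17:34959239-34959488): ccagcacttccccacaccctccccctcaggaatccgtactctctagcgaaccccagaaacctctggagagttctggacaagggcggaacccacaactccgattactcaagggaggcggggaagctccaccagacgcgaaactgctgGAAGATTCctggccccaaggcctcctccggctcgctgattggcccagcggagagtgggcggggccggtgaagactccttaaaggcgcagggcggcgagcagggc
Hspb1 (chr5:135887669-135887918): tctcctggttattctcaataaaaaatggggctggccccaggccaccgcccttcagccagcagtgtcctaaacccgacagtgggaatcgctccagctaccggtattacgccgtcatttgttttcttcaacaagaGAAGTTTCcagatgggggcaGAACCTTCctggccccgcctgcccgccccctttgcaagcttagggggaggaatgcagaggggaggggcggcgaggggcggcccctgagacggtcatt
All of these genes had under 5 TPM in both areas.

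A further 5 sites are shown as 30 bases around the match, those of genes at higher levels and that of Hspb8, the member that differed most between the areas. Hspd1 and Hspe1 lie head to head with start sites 216 bases apart, and the run of 4 alternating units between them, on the strand of Hspe1, belongs to both windows. Hsph1, on the minus strand, and Dnajb6, on the plus strand, hold a run of 3 units. Dnaja1, on the plus strand, and Hspb8, on the minus strand, hold a run of 2.
Hspe1 and Hspd1 (chr1:55088053-55088082): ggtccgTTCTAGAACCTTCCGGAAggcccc
Hsph1 (chr5:149636279-149636308): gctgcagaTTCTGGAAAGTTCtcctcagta
Dnajb6 (chr5:29735844-29735873): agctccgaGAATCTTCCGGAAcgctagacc
Dnaja1 (chr4:40722333-40722362): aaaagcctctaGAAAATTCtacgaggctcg
Hspb8 (chr5:116422844-116422873): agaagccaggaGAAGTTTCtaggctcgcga
Hspe1 stood at 299 and 216 TPM, Hspd1 at 98.7 and 107, Hsph1 at 77.6 and 103, Dnajb6 at 225 and 232 and Dnaja1 at 404 and 376 TPM, while Hspb8 was low at 6.17 and 0.05 TPM. The Hspb8 run, at bases 3 to 10, and the Hsph1 run shown lie after the start site. Before the start, the 2-unit run stood in genes at very different levels, from Hspa1b to Dnaja1.

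Between the areas the members differed little. The comparison took the log2 ratio of (TPM + 1) in replicate 1 over replicate 2, for the 37 members whose mean reached 1 TPM. Of these, 1 was more than 2-fold higher in replicate 1 and 0 were more than 2-fold higher in replicate 2, where 4.99% and 5.31% of 11842 protein-coding genes at the same minimum passed these folds. Beyond 1.5-fold in either direction there was still 1 of 37, against 26.6% of those genes. Members are more abundant than most genes, and among those whose mean reached 20 TPM, 0 of 33 members passed 1.5-fold, against 12.0% of 4423 genes. The members' median log2 ratio was -0.05 and that of all 11842 genes was -0.05. Of the 37, 11 (29.7%) were higher in replicate 1 by any amount, against 45.9% of all genes, but with levels scaled to the spike-in RNA this became 24 of 37 against 59.4%, since that scaling moved the median of all genes to 0.11.

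**Figure D4:**
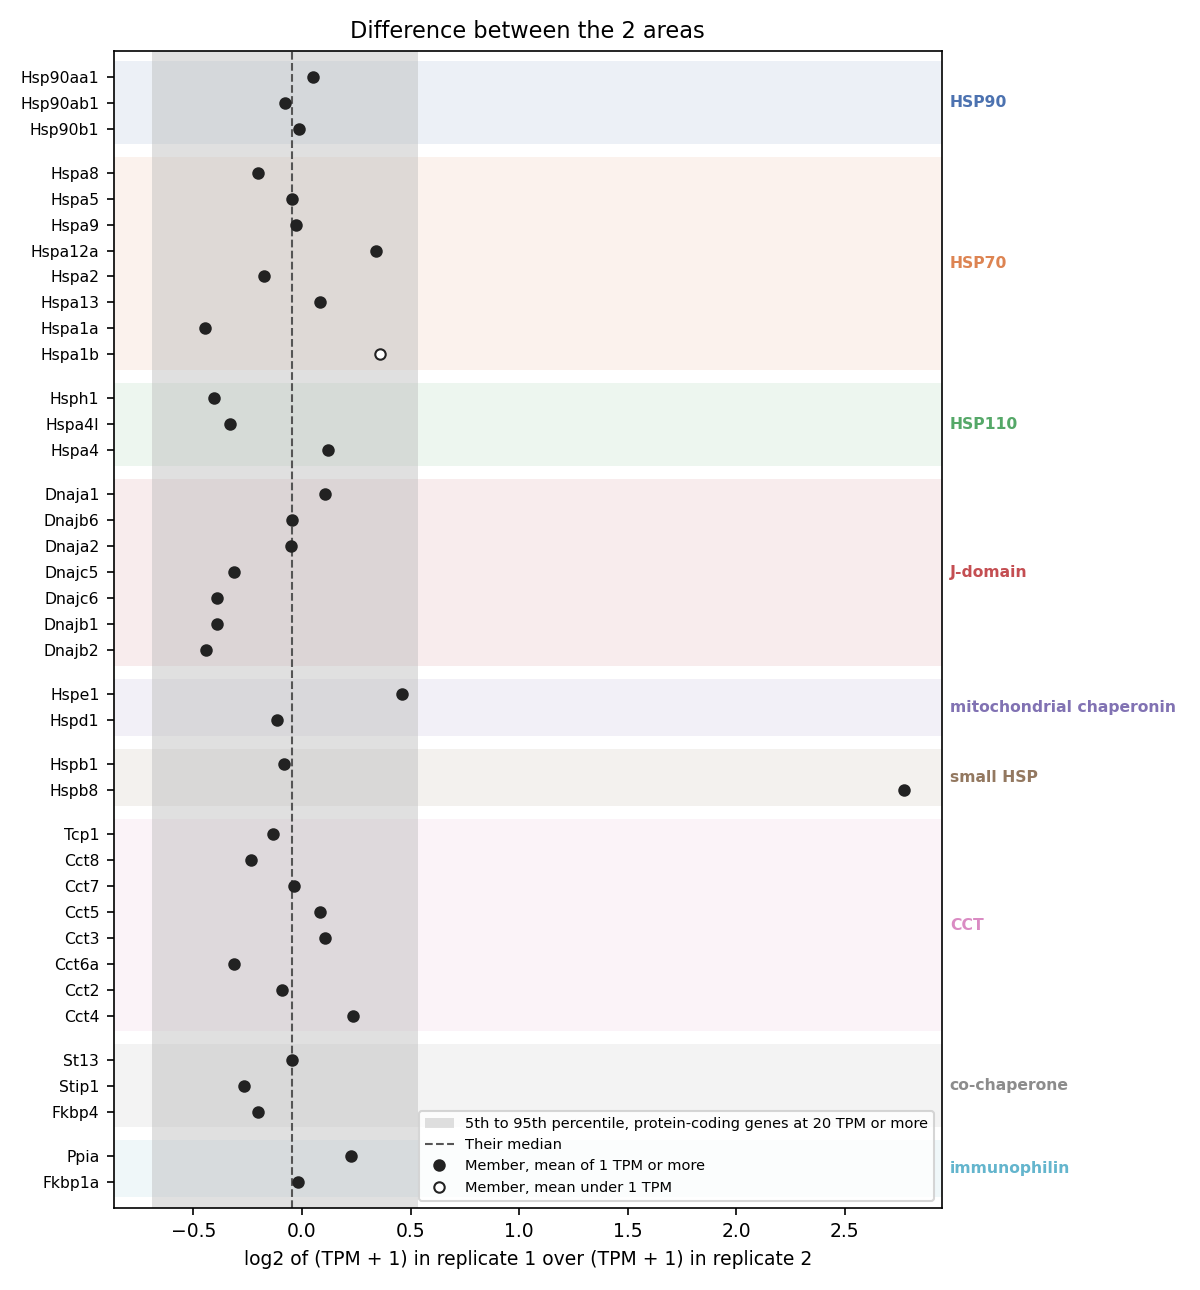
log2 ratio of (TPM + 1) in replicate 1 over replicate 2 for each gene by role. The grey band spans the 5th to 95th percentile of protein-coding genes whose mean reached 20 TPM, from -0.69 to 0.53, and the dashed line is their median; Hspb8, at 2.77, is the only member outside the band.

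The exception was Hspb8 (chr5:116408491-116422864), with 6.17 TPM from 224 expected counts in replicate 1 and 0.05 TPM from 2 counts in replicate 2. Per total counts it was 122 times higher in replicate 1, with an exact Clopper-Pearson 95% counting interval of 33.3 to 1009.7. In bulk areas such as these, fewer cells of a type and less RNA per cell cannot be told apart. Marker genes of other cells moved between the areas as well. All 8 microglia markers were more than 2-fold higher in replicate 1, with summed levels of 257 and 74.5 TPM, and 3 of 7 endothelial markers at 1 TPM or more were, with sums over 8 genes of 191 and 131 TPM. The 8 oligodendrocyte markers were all higher in replicate 2, 5 of them more than 2-fold, with sums of 556 and 960 TPM, and the 8 astrocyte markers summed to 646 and 754 TPM. No marker of these lists stood at 0 in both areas, and the lowest were Cdh5 of endothelium, at 0.17 and 0.21 TPM, and Gfap of astrocytes, at 0.76 and 0.44 TPM. Their part in the Hspb8 difference was not tested.

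The direction of the smaller differences was followed under 5 scalings, namely TPM, TPM with a pseudocount of 0.1, posterior mean TPM, CPM with TMM factors and TPM scaled to spike-ins. A change of pseudocount cannot change a sign, and posterior mean TPM is another estimate of the same level. Keeping a direction under all 5 therefore rests mainly on TPM, CPM and spike-in scaling. Of the 37 members 12 were higher in replicate 2 under all 5, 9 were higher in replicate 1 under all 5, and the remaining 16 changed sign. The shares of 32.4% and 24.3% that kept a direction were lower than those of all 11842 protein-coding genes, 39.2% for replicate 2 and 42.6% for replicate 1. Those higher in replicate 2 were Hspa1a, Hspa2, Hspa8, Hsph1, Dnajb1, Dnajb2, Dnajc5, Dnajc6, Cct6a, Cct8, Stip1 and Fkbp4. Those higher in replicate 1 were Hspa4, Hspa12a, Hspa13, Hspe1, Hspb8, Cct3, Cct4, Cct5 and Ppia. With 1 area on each side, only counting error can be set against them.

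Of the stress-induced members, Hspa1a, Hsph1 and Dnajb1 were higher in replicate 2 under all 5 scalings. Hspb8, at 6.17 and 0.05 TPM, was higher in replicate 1 under all 5. Per total counts Hspa1a was 1.43 times higher in replicate 2 (counting interval 1.17 to 1.76), Hsph1 1.26 times (1.22 to 1.30) and Dnajb1 1.26 times (1.18 to 1.35). Hspa1b went the other way, with 23.1 and 5.66 counts, and since reads are divided between it and Hspa1a by estimation, which the intervals do not cover, the summed pair is given as well. With 181 and 250.3 counts the pair was 1.27 times higher in replicate 2 (1.05 to 1.55). Hsp90aa1 did not keep a sign, with a log2 ratio of 0.05 in TPM and -0.01 in CPM with TMM factors, nor did Hspb1. The 13 listed immediate early genes are transcripts made within minutes of neuronal activity or stress. Of the 9 with a mean of 1 TPM or more, 9 were also higher in replicate 2 (8 of 9 with spike-in scaling). Egr1 had 41.8 and 72.9 TPM and Arc 7.31 and 16.3 TPM, while Dusp1 was nearly level at 12.2 and 12.6 TPM. Among those with a mean under 1 TPM, Atf3 went the other way, at 1.38 and 0.57 TPM. Fosb and Npas4 were higher in replicate 2 in TPM, and Egr2 had no count. For comparison, 45.9% of all protein-coding genes at that minimum were higher in replicate 1, and 59.4% with spike-in scaling. Neuron markers were higher in replicate 2 too, 9 of 9 in TPM, 8 of 9 in CPM with TMM factors and 7 of 9 with spike-in scaling, with a median log2 ratio of -0.23 in TPM and -0.06 with spike-in scaling. What part each of these had in the differences of the stress-induced members was not tested.

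Members of 1 machine did not always differ the same way. Hspe1 was 1.45 times higher in replicate 1 per total counts (counting interval 1.38 to 1.52), while Hspd1, which shares its promoter region, was 0.98 times (0.94 to 1.02). Among CCT subunits Cct4 was 1.32 times higher in replicate 1 (1.26 to 1.38) and Cct6a 1.19 times higher in replicate 2 (1.13 to 1.24). Dnajc5 and Dnajc6, which act with Hspa8 at the synapse, were 1.28 times (1.24 to 1.33) and 1.27 times (1.22 to 1.33) higher in replicate 2, and Hspa8 itself 1.08 times (1.07 to 1.09).

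The transcript tables showed which forms the gene values were made of. Of 33 members whose mean reached 20 TPM, 21 had a transcript that held at least 80% of the gene's TPM on average, and in 8 of these it held 100% in both areas. The other 12 were mixtures. Hsp90aa1 was led by Hsp90aa1-208, a coding transcript of 711 bases, with 47.9% and 47.2%, while the full transcripts Hsp90aa1-201 (2852 bases) and Hsp90aa1-202 (3281 bases) held 21.97% and 22.7%, and 12.9% and 16.8%. Hsp90ab1 was divided between Hsp90ab1-201 (2520 bases), with 55.7% and 62.0%, and Hsp90ab1-206, a transcript of 703 bases typed as a target of nonsense-mediated decay, with 42.5% and 36.6%. Hspa8 had 67.2% and 66.4% in Hspa8-202 and 26.4% and 27.7% in Hspa8-204, a retained-intron form of 456 bases. TPM divides counts by length, so reads given to such short forms weigh more in the gene's level than reads of the full message.

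**Figure D5:**
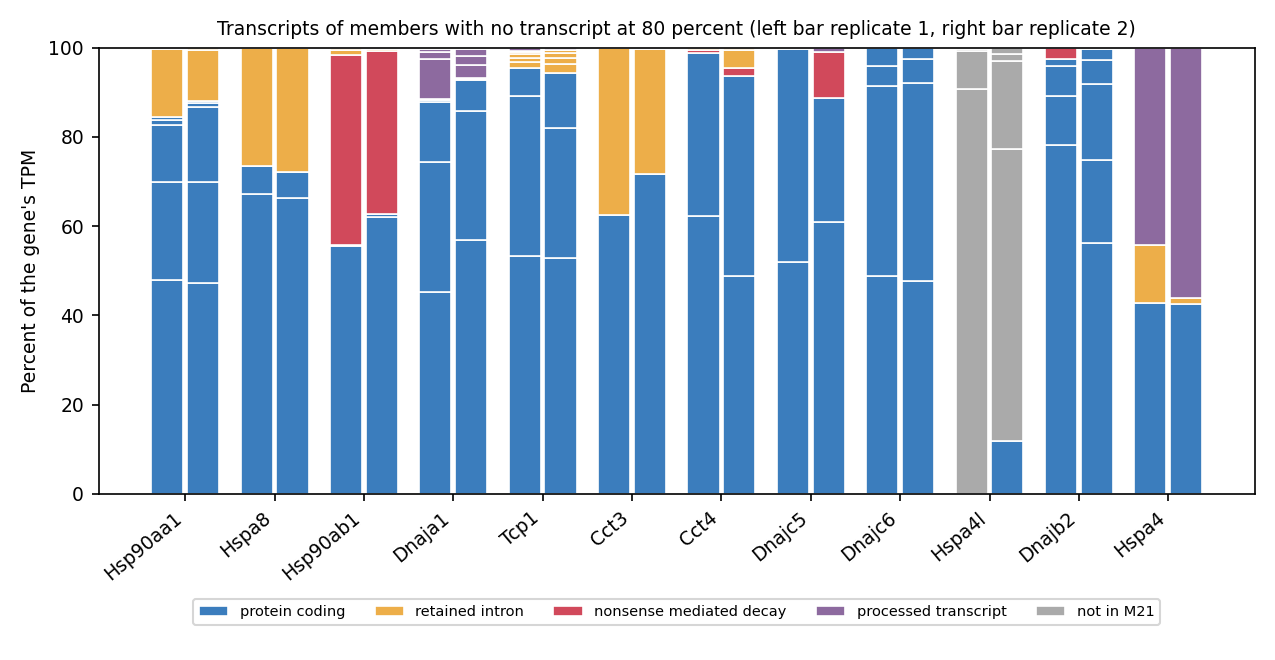
Percent of the gene's TPM held by each transcript in replicate 1 (left bar) and replicate 2 (right bar) for the 12 members without a transcript at 80%, from the most abundant gene to the least; colours give the M21 transcript type and white lines separate transcripts. Retained-intron and decay-typed forms make up visible parts of Hsp90aa1, Hspa8, Hsp90ab1 and Cct3.

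Ppia was not among these mixtures, but its leading form, Ppia-201 with 82.5% and 82.1%, is typed as a decay target in M21, and Ppia-203, a retained-intron form of 355 bases, held 15.1% and 15.3%. Cct3 had 37.3% and 28.0% in the retained-intron form Cct3-203 of 472 bases. The leading transcript differed between the areas for 1 of the 33 genes. Dnajc5-203 held 52.1% in replicate 1 and 27.8% in replicate 2, and Dnajc5-201 held 47.6% and 61.0%. Hsph1, Hspe1, Dnajb1, Dnaja2, Stip1 and St13 each had 1 transcript with over 99% in both areas, so their levels do not rest on a division among forms.

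Genes that act with the members were taken from lists of pathway members, drawn with earlier results of these data known. The heat shock factors were low, and Hsf1, the main activator of the stress-induced genes, stood at 9.95 and 19.6 TPM, Hsf2 at 15.2 and 16.2, Hsf4 at 1.77 and 3.10 and Hsf5 at 0.29 and 0.03 TPM. Hsbp1, a small protein that binds Hsf1, stood at 496 and 548 TPM. All 4 of these 5 genes at 1 TPM or more were higher in replicate 2, and 2 of 4 with spike-in scaling. Among all protein-coding genes at that minimum, 45.9% were higher in replicate 1, and 59.4% with spike-in scaling.

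Of 11 other stress-induced genes, 9 reached a mean of 1 TPM, and 7 of these were higher in replicate 2 (3 of 9 with spike-in scaling). Higher in replicate 1 were 2 of 9 (6 of 9 with spike-in scaling), against 45.9% of all protein-coding genes (59.4% with spike-in scaling). The highest of the list were polyubiquitin Ubb at 3067 and 3411 TPM, the small heat shock gene Cryab, which oligodendrocytes also express, at 90.7 and 180 TPM, and Chordc1, an HSP90 co-chaperone, at 67.1 and 58.4 TPM. Dedd2, at 3.49 and 14.3 TPM, was the only one more than 2-fold apart. Bag3, which heat shock factors induce along with the HSP70 genes, had 1.47 and 2.74 TPM.

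In the HSP90 cycle 13 of 13 listed genes reached 1 TPM, led by Ptges3 (p23) at 280 and 318, Stub1 at 186 and 205 and Fkbp8 at 141 and 171 TPM. The phosphatase Ppp5c, at 34.7 and 71.4 TPM, was more than 2-fold higher in replicate 2. In the HSP70 cycle, 11 of 11 reached 1 TPM, led by the exchange factors Bag1 at 219 and 219 TPM and Hspbp1 at 120 and 123 TPM. Bag2, at 12.96 and 3.14 TPM, was more than 2-fold higher in replicate 1. Of 21 other J-domain genes 21 reached 1 TPM, with Dnajc8, Dnajc19 and Dnajc7 the highest. Dnajc1, at 13.5 and 6.20 TPM, and Dnajc21, at 10 and 21.98 TPM, were more than 2-fold apart, in opposite directions.

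Other folding genes were present at moderate levels. In the endoplasmic reticulum 12 of 12 genes reached 1 TPM with medians of 74.8 and 92.1 TPM, led by Fkbp2, calnexin (Canx) and calreticulin (Calr). The 5 other mitochondrial folding genes stood lower, with 25.1 and 23.2 TPM as their medians, and the protease subunit Clpp was the highest at 78.5 and 59.2 TPM. In the unfolded protein response list 9 of 10 genes reached 1 TPM in both areas, Asns stood highest at 106 and 108 TPM, and Trib3 had 0 and 4 counts. In none of these lists was a gene more than 2-fold apart. Of the other small heat shock genes 5 of 8 reached 1 TPM in both areas, and Hspb9 and Cryaa had no count in either, which allows a level of up to 0.115 and 0.106 CPM (counts scaled to the library total).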

How the data were processed

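RNA-seq was made with a Smart-seq type protocol and added spike-in RNA, per the labels' protocols. The deposited gene and transcript tables give expected counts (estimated reads per feature, not whole where reads map to several), TPM, posterior mean TPM and the percent of a gene's TPM per transcript, as the authors made them. Per the deposited text files, reads were assigned on mm10 with release M4 of the annotation; the program, aligner and strand setting are not given in the sources used here, so overlapping and antisense genes cannot be separated with certainty. Totals were 26059117 and 28276843 expected counts.

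Symbols were matched by Ensembl identifier (189 of 190 listed; Hspa14 was not matched; 1 more listed gene is not reported here), and gene bounds and transcript types came from GENCODE M21 on GRCm38, the same assembly in another release, which types Cct6a as a processed transcript; it was kept as protein-coding. Ratios used log2(TPM + 1), which shrinks the changes of low genes, for genes whose mean reached 1 TPM. Intervals of count ratios are exact Clopper-Pearson at 95%, and a count of 0 allows up to 3 counts. Named were all members, from other lists up to 3 genes with the highest mean, all heat shock factors and genes beyond 2-fold whose mean reached 1 TPM; others, such as Bag3, Cdh5, Gfap and Trib3, were chosen after their values were seen. Members and lists were chosen with earlier results of these data known. Copies were sought among M21 transcripts with BLAST 2.17.0 (at least 95% identity over 300 bases). Expected counts of nuclear genes were rounded and given TMM factors with edgeR 4.0.16 (R 4.3.3). Python 3.11.15 with scipy 1.17.1, pandas 2.3.3, matplotlib 3.10.9 and numpy 2.4.6 did the rest. The fold calls and intervals were run on simulated counts with planted changes. These counts held counting error alone, so the run is no check against other variation between the areas. Alternatives were another pseudocount (0.1), other minimums and folds, posterior means, nuclear genes alone, CPM, spike-in scaling and leaving out each area.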

Additional observations from a re-analysis of the deposited data

How the results depend on the processing

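The members' mean share of TPM was 1.45%, with 1.43% and 1.48% when either area was left out, 1.88% over nuclear genes without spike-ins and 1.97% with Gm10123 counted as Ppia, a setting added after seeing the data. The constitutive minus stress-induced difference of 4.52 ranged from 4.27 to 4.77 with an area left out and was 1.75 without Hspa1a, Hspa1b and Ppia. With counts per longest coding transcript, also added later, the mean pair ratio moved from 0.77 to 0.23 for HSP90 and from -9.07 to -8.46 for HSP70. With an area left out the pairs ranged from 0.71 to 0.83 for HSP90, -9.17 to -8.96 for HSP70, 1.86 to 2.40 for HSP110 and -1.88 to -1.53 for the J-domain pair. Scaled to spike-ins, the members' median log2 ratio between areas was 0.12 in place of -0.05, and 24 in place of 11 members were higher in replicate 1. At a mean of at least 20 TPM 0 members passed 2-fold in place of 1, since Hspb8 lies under that minimum. At a mean of at least 100 TPM 6 of 20 members, in place of 12 of 33, had no transcript at 80%, as fewer genes were counted. The cause of the other moves was not tested. All other alternatives run left these results within the spread between the areas, within 1.5 times the count or, for the median ratio, within 0.1 of its value. With 2 areas, leaving 1 out returns the value of the other, which always lies within that spread. Those alternatives could therefore not fail and are no check of these results. Nor could the pseudocount of 0.1 change how many members were higher in replicate 1. No paired analysis was possible because both areas belong to 1 group. With 2 areas under 1 donor label, spread between animals could not be measured apart from spread between areas. At 3 counts or fewer, levels such as that of Hspb8 in replicate 2 rest on a few reads.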
